A study of Mus musculus with 16 samples.

Results

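The type 2 periosteal progenitor sort (PP2) was compared with the mesenchymal stem cell sort (MSC) from mouse femurs, 8 of the 16 RNA sequencing libraries of the study. All mice were C57/B6 at postnatal day 6 and carried the CTSK-cre+ mTMG genotype, so both groups share the Cre driver and the reporter. In this reporter every cell makes membrane Tomato until Cre switches it and its descendants to membrane GFP, and here Cre was driven by the promoter of Ctsk, the gene of cathepsin K. PP2 cells, named by the labels only as the type 2 progenitor population and as periosteal progenitor cells, belong to the GFP-positive lineage in the published description of these sorts. The MSC sort is the GFP-negative population, which the labels call endosteal mesenchymal stem cells. The other 8 libraries are the type 1 progenitors (PP1) and the periosteal stem cells (PSC) of the same litter, which entered the fit and are given for orientation. Each group has 4 libraries, made on the same day from 1 litter without pooling. Of the 22559 genes in the table, 13797 were compared, those at 10 normalized counts or more in 4 or more of the 16 libraries. A normalized count is the number of reads of a gene divided by a scale factor of its library, and it is not corrected for gene length.

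The periosteum is the connective tissue sheath of a bone. Its outer part is fibrous and holds vessels, nerves and fibroblasts, and its inner part holds the progenitors that form bone directly during growth and repair. Ctsk is best known from osteoclasts, which use cathepsin K to cleave collagen, but Ctsk-Cre also marks cells of the periosteal mesenchyme. The endosteal side of a growing long bone adjoins marrow, trabecular bone and the growth plate cartilage, where chondrocytes deposit type II collagen and aggrecan, enlarge, switch on type X collagen and are replaced by bone.

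PP2 and MSC libraries differed in more than their gene levels. PP2 libraries held 24.3 M to 41.15 M recovered reads (M, mega) and MSC libraries 39.45 M to 48.36 M. At least 1 read was found for 12530 ± 734 genes in PP2 and 15600 ± 77.7 in MSC (mean ± SD, n = 4 each), a difference with a two-sided exact permutation p of 0.0286, the smallest that 4 against 4 libraries can give. After all libraries were thinned to the depth of the shallowest, the numbers were 12510 ± 723 and 15270 ± 71.2 (exact permutation p = 0.0286). Of the genes tested, 7.842% to 16.44% were at 0 in a PP2 library and 0.4276% to 0.5363% in an MSC library, and 408 genes were at 0 in all 4 PP2 libraries against 6 in all 4 MSC libraries. The share at 0 was highest in PP2 replicates 1 and 3 (13.57% and 16.44%). The part of these unread genes in the lower calls below was not tested, beyond the count among genes with a read in all 16 libraries. Replicates were also less alike in PP2: the median over genes of the SD within a group, in log2 units, was 0.476 in PP2 and 0.218 in MSC. The Y-linked gene Ddx3y was at 2403 and 2402 normalized counts in PP2 replicates 2 and 3 and at 2.198 and 2.507 in replicates 1 and 4, and in MSC at 2550 and 2572 against 0.8582 and 5.881, so each sort holds libraries of more than 1 animal. The labels do not say that every library is a separate animal, so a p-value speaks only of library-to-library spread, part of which may be technical.

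The sorts were far apart in what they transcribed. With limma at an adjusted p under 0.05, 3307 of the 13797 genes differed, which is 24.0%: 1280 were higher in PP2 (9.28%) and 2027 lower (14.7%). Scaling each library to its column total in place of the deposited factors gave 1736 higher and 1718 lower. It moved the median difference of all genes from -0.19 to -0.08 on the log2 scale. After TMM scaling 1323 were higher and 1978 lower, with edgeR (RLE) 1275 and 1513, and with DESeq2 1442 and 1720. The size of the excess of lower calls thus depends on the scaling and on the method, and with column-total scaling there was none. Among the 10136 genes with a read in every library, 1239 were higher and 1351 lower. A difference of over 2-fold was reached by 460 of the higher genes (3.33% of all tested) and 1452 of the lower ones (10.5%). All 4 PP2 libraries lay above or below all 4 MSC libraries for 4208 genes (30.5%), above for 12.4% and below for 18.1%. The list counts below are to be read against these shares and against the 9.28% and 14.7% called. For comparison, the same fit called 115 genes between PP2 and PP1 (0.834%, with 0.355% higher and 0.478% lower in PP2) and 4520 between PP2 and PSC (32.8%); these comparisons share the PP2 libraries.

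**Figure D1:**
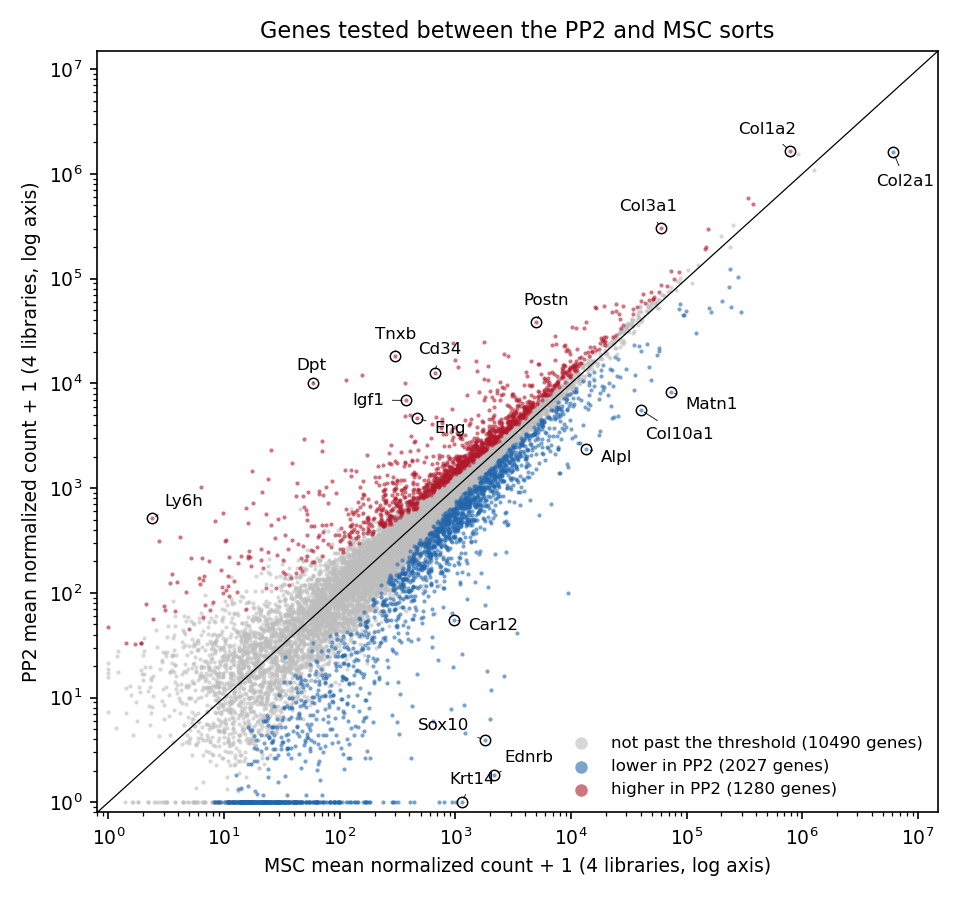
Mean normalized count + 1 of each gene tested in MSC (x axis) and in PP2 (y axis), 4 libraries each, both axes logarithmic, with the line of equal levels and some named genes circled. The 1280 higher genes lie above the line, the 2027 lower genes below it, and the row of points at 1 on the y axis holds genes without a read in any PP2 library.

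The labels were checked first against the transcripts tied to the sort. Ctsk was at 7962, 7162, 8071 and 6377 normalized counts in PP2 replicates 1 to 4 and at 2271, 1996, 1971 and 2089 in MSC, 3.54-fold higher in PP2 (log2 difference 1.82, SE 0.14, limma adjusted p = 1.86e-08). The GFP-negative MSC sort carried Ctsk transcripts at a lower but clear level. Ctsk averaged 12338 in PP1 and 2751 in PSC, so its level in PSC was nearer to MSC (2082) than to PP2 (7393). Eng, which encodes the TGF-beta co-receptor endoglin (CD105), was at 5330, 3252, 4840 and 5177 in PP2 and 406, 401, 599 and 473 in MSC, 9.83-fold higher in PP2 (log2 difference 3.30, SE 0.19, adjusted p = 7.18e-10). Cd200, which encodes a surface glycoprotein, was 2.07-fold lower in PP2, with 2084, 1865, 2570 and 1603 in PP2 and 4665, 4107, 3278 and 4656 in MSC (adjusted p = 1.08e-04). The surface gates are not in the labels, and in the published description CD200 and CD105 separate the GFP-positive sorts, so the levels of Eng and Cd200 are a check and no finding. Thy1, Enpep and Itgav, which encode the surface proteins CD90, aminopeptidase A and integrin alpha V, did not pass (adjusted p = 0.233, 0.799 and 0.114). Thy1 was at 166, 97.4, 0 and 47.6 in PP2 and 4.29, 11.6, 5.14 and 6.62 in MSC, and it was called without PP2 replicate 3 (adjusted p = 0.00157) and with DESeq2 (adjusted p = 9.13e-04). Enpep ranged from 0 to 368 in PP2 and from 63.958 to 124 in MSC, with the groups overlapping.

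In both sorts mesenchymal transcripts were abundant. The marrow stromal factors Cxcl12 and Lepr, which encode a chemokine and the leptin receptor and mark marrow stroma, were present in MSC at 9243, 13821, 8731 and 6254 and 817, 1050, 972 and 563. They were present in PP2 too, at 11315, 15957, 5542 and 6816 for Cxcl12 and 710.00, 529, 553 and 359 for Lepr, and neither difference passed (adjusted p = 0.988 and 0.0883), though Lepr was called lower without MSC replicate 4 (adjusted p = 0.044). Type II collagen (Col2a1) took 17.94% ± 2.95 of the normalized total in MSC and 5.115% ± 0.504 in PP2 (SD, n = 4 each; exact permutation p = 0.0286). The MSC sort therefore holds, beside stromal transcripts, a large cartilage transcript share that its label does not name. In bulk samples, fewer cells of a type and less RNA per cell cannot be told apart, and this holds for every level below.

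The steepest rises in PP2 included several genes of loose connective tissue. Among called genes with a mean of at least 100 in the higher sort and no overlap between libraries, the 15 with the largest log2 difference were Ly6h, Coch, Dpt, Clec3b, Col6a6, Adcyap1r1, Rab37, Gpr1, Mfap5, Kera, Chodl, Tnxb, Hmcn2, Myl1 and Ly6a. Dpt, which encodes the matrix protein dermatopontin, was at 14739, 9299, 8840 and 7454 in PP2 and 78.1, 50.6, 59.9 and 43.4 in MSC, 169-fold higher (log2 difference 7.40, SE 0.82, adjusted p = 2.29e-06). Clec3b, which encodes tetranectin, a plasminogen-binding secreted protein, was at 15551, 9953, 7712 and 10086 in PP2 and 159, 99.2, 87.3 and 99.980 in MSC, 95.8-fold higher (log2 difference 6.58, SE 0.30, adjusted p = 1.02e-10). In both genes every PP2 library lay far above every MSC library. Tnxb, the gene of tenascin X, a matrix glycoprotein that associates with collagen fibrils, was at 28972, 13019, 15745 and 15365 against 375, 311, 312 and 212, 58.5-fold higher (log2 difference 5.87, SE 0.34, adjusted p = 6.35e-10). Col6a6, a type VI collagen chain, was at 3527, 1731, 2344 and 1697 against 28.3, 18.5, 38.5 and 13.2 (93.3-fold, adjusted p = 4.24e-06). Kera, the gene of the small proteoglycan keratocan, was at 4873, 1811, 2821 and 2322 against 58.4, 23.9, 70.2 and 40.4 (60.3-fold, adjusted p = 1.27e-08). Ly6a encodes the surface protein Sca-1, a marker of mouse progenitor cells, and was at 2295, 1667, 1508 and 1507 against 40.3, 27.4, 36.8 and 47.049 (44.972-fold, adjusted p = 6.83e-09). Several of these genes were close to absent from MSC, so that their folds depend on the added count of 1. Ly6h had 7 reads and Coch 27 reads in the 4 MSC libraries together, against 752, 445, 288 and 572 and 1818, 694, 828 and 751 normalized counts in PP2. Myl1, a myosin light chain of skeletal muscle, was at 1058, 584, 821 and 1239 in PP2 and 23.2, 32.2, 14.6 and 11.027 in MSC and belongs to the muscle transcripts described further on.

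The steepest falls included genes of nerve sheath and epidermis. Among the 15 genes by the same rule were Ednrb, Krt14, Erbb3, Sox10, Egfl8, Col20a1, Foxd3, Kcna1, Mal, Pou3f1, Sema3g, Krt17, Col28a1 and Cadm4. Sox10, a transcription factor of neural crest and Schwann cells, was at 1527, 1903, 1754 and 2028 in the MSC libraries and at 0, 0, 0 and 11.7 in PP2. Erbb3, the neuregulin co-receptor that Schwann cells need, was at 1033, 974, 1075 and 996 in MSC and had no read in any PP2 library, at least 258-fold lower when 3 reads per library are taken as the floor. These levels were alike in the 4 MSC libraries, and every PP2 library lay at or near 0. Krt14, a keratin of basal epidermal cells, was at 874, 1563, 1229 and 908 in MSC and at 0 in all of PP2, at least 282-fold lower. By the same floor Egfl8, which encodes a protein with EGF-like domains, was at least 230.2-fold lower, Foxd3, a neural crest transcription factor, at least 202-fold, the potassium channel gene Kcna1 at least 182-fold, the semaphorin gene Sema3g at least 109.6-fold and the collagen gene Col28a1 at least 101-fold. Ednrb, the gene of the endothelin receptor type B, was at 2101, 2059, 1951 and 2543 in MSC, and in PP2 it had 4 reads, all in replicate 4. The adjusted p of these 15 genes ran from 6.54e-07 for Egfl8 to 0.00172 for Krt17, and the Krt17 call was lost with voom (adjusted p = 0.0731).

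Markers of cell types other than bone and cartilage were counted in full, since they can enter a sort. Of the 20 Schwann and neural crest markers tested, 17 were lower in PP2 and 1 higher, with a median log2 difference of -4.93 (-4.39 with genes at 0 placed at their floor) beside -0.19 over all genes tested. The one that was higher, Pmp22, encodes a peripheral myelin protein that fibroblasts also make, and was not called when any library but PP2 replicate 2 or MSC replicate 4 was left out. The summed level of the list was 15160 to 18110 normalized counts in PP2 and 34010 to 46910 in MSC. Mbp, the gene of myelin basic protein, was at 127, 9.67, 0 and 23.4 in PP2 and 3520, 3867, 2001 and 4300 in MSC. In PP2, Sox10 was at 0 in 3 libraries and Foxd3 and Erbb3 in 4. Of 11 epidermal markers, 8 were lower and 0 higher (median -5.07), and their sum was 441.4 to 723.6 in PP2 and 3310 to 5682 in MSC. Krt5, the partner keratin of Krt14, was at 0, 0, 42.4 and 32.6 in PP2 and 1013, 1366, 805 and 598 in MSC, and Dsp, the gene of the desmosome protein desmoplakin, was at 0 throughout PP2 and at 419, 265, 324 and 149 in MSC. Of 19 endothelial markers, 11 were lower and 0 higher (median -4.01, or -3.05 with the floor), with a sum of 420.4 to 944.1 in PP2 and 1875 to 3040 in MSC. Pecam1, which encodes the endothelial adhesion protein CD31, was at 228, 319, 378 and 333 in MSC, at 19.2 in PP2 replicate 4 and at 0 in the other PP2 libraries. The endothelial count fell to 6 without MSC replicate 2, 3 or 4 and to 7 without PP2 replicate 4 or MSC replicate 1, and was 6 among genes at 50 or more in 4 libraries.

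Contractile genes went both ways. Of 19 pericyte and smooth muscle markers, 10 were lower in PP2 and 4 higher (median -1.17), with a sum of 29210 to 31000 in PP2 and 52220 to 62480 in MSC. Acta2, smooth muscle actin, was at 2296, 1472, 415 and 1373 in PP2 and 7237, 8833, 7632 and 8089 in MSC, 6.72-fold lower (log2 difference -2.75, SE 0.40, adjusted p = 6.15e-05). Myh11, the myosin heavy chain of mature smooth muscle, was at 278, 0, 0 and 66.9 in PP2 and 1236, 1358, 1434 and 981 in MSC (adjusted p = 0.00335). Rgs5, a regulator of G protein signalling that marks pericytes, went the other way, at 1317, 1245, 3241 and 1614 in PP2 and 447, 569.9, 427 and 405 in MSC (3.73-fold higher, adjusted p = 0.0206), but was not called without PP2 replicate 3 (adjusted p = 0.0637). Of 15 skeletal muscle markers tested, 6 were higher and 0 lower (median 2.71). Acta1, skeletal muscle actin, was at 4093, 2370, 1634 and 3207 in PP2 and 91.8, 93.7, 48.8 and 43.4 in MSC (40.2-fold, adjusted p = 1.76e-08), and Ckm, muscle creatine kinase, at 555, 102, 284 and 341 and 12.9, 15.7, 2.57 and 6.62. All 4 PP2 libraries held more of these transcripts than any MSC library. The muscle sum was 4476 to 9046 in PP2, 1068 to 2447 in MSC, 1459 to 3659 in PP1 and 1612 to 3528 in PSC. Of 5 satellite cell markers tested, 2 were higher and 1 lower, and the satellite cell factors Pax7, Myod1, Myf5 and Myog did not reach the filter.

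Few blood cell markers passed the test. None of the 15 macrophage, 10 neutrophil, 8 erythroid, 2 B cell, 3 megakaryocyte and 3 mast cell markers tested was higher in PP2, and 1 each of the macrophage (Laptm5), neutrophil (Prtn3) and erythroid (Car2) markers was lower; no T or NK cell marker reached the filter. Laptm5 was not called with voom, and Car2 and Prtn3 were not called with edgeR or DESeq2. Car2 also lost its call without PP2 replicate 1 or 2 or any 1 MSC library, and Prtn3 when any library but PP2 replicate 2 was left out. Osteoclast genes were examined because Ctsk is one of them: of 11 tested, 2 were higher (Ctsk and Acp5, the gene of tartrate-resistant acid phosphatase) and 2 lower (Mmp9 and Nfatc1). Acp5 was at 385, 824, 958 and 581 in PP2 and 216, 256, 203 and 205 in MSC (adjusted p = 0.00342), and Nfatc1, the osteoclast master transcription factor gene, at 925, 1408, 2796 and 1745 and 2877, 2356, 3006 and 2254 (adjusted p = 0.0463), overlapping between the sorts and called without PP2 replicate 3 but not when any other library was left out. The macrophage sum was 123.3 to 713.9 in PP2 and 517.1 to 931.4 in MSC. The erythroid sum was 365.8 to 4109 in PP2 and 119.9 to 1500 in MSC. Of 10 adipocyte markers tested, 1 was higher and 0 lower, against 9.28% and 14.7% of all genes. Their sum was 4427 to 5706 in PP2 and 2870 to 3400 in MSC. The part that nerve sheath, epidermal, vascular and muscle transcripts take in the other differences was not tested.

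**Figure D2:**
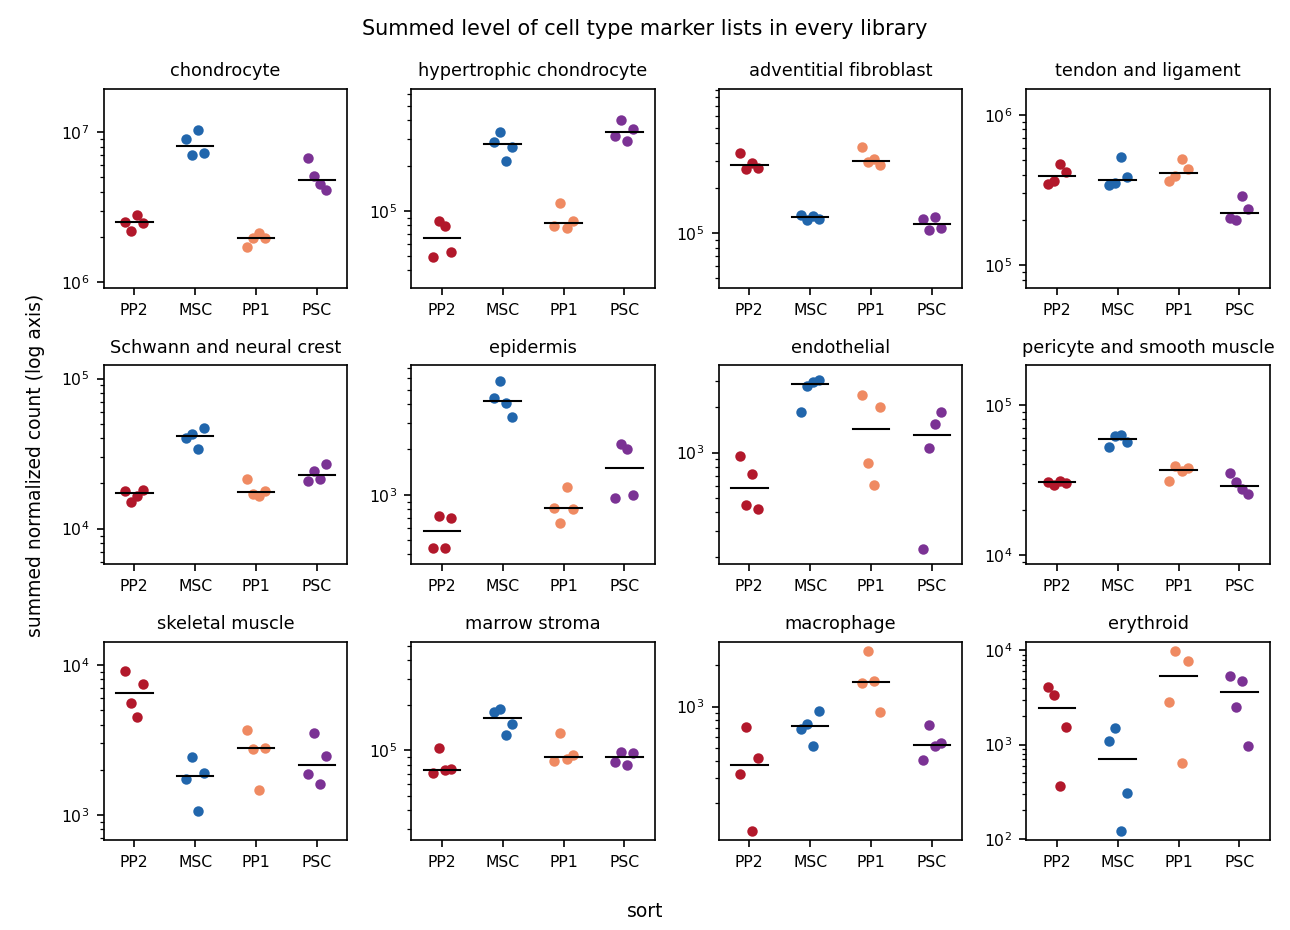
Summed normalized count (log axis) of 12 marker lists in each of the 16 libraries, by sort, with the median of each sort as a line. The medians of the Schwann, epidermal, endothelial and smooth muscle sums were highest in MSC, the skeletal muscle sum was highest in PP2, and macrophage and erythroid sums overlapped between PP2 and MSC.

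Genes of adventitial fibroblasts, the loose connective tissue cells around vessels and organs, formed a group on the PP2 side. Of 28 members tested, 21 were higher in PP2 and 1 lower (Limch1), with a median log2 difference of 1.65, against 9.28% and 14.7% of all genes. Cd34, which encodes a sialomucin of progenitor and endothelial cells, was at 16871, 11396, 9525 and 12222 in PP2 and 602, 564, 685 and 804 in MSC (18.6-fold, log2 difference 4.22, SE 0.25, adjusted p = 7.18e-10). Pi16, the gene of peptidase inhibitor 16, was at 708, 425, 464 and 269.9 against 8.58, 16.4, 17.1 and 18.4, and Dpp4, which encodes a surface peptidase, at 209.9, 146, 223 and 293 against 29.2, 12.999, 11.985 and 8.82. Both mark a fibroblast progenitor state in mouse connective tissue, and in each the libraries of the sorts did not overlap (adjusted p = 1.18e-06 and 2.58e-04). Igfbp6, an IGF-binding protein with preference for IGF2, was 27.6-fold higher (10136 ± 3390 against 367 ± 116, mean ± SD, n = 4 each), and Cd248, the gene of endosialin, 7.0028-fold higher (4778 ± 371 against 682 ± 66.4). Pdgfra, the PDGF receptor alpha of fibroblasts, was at 6455, 7327, 10331 and 7638 in PP2 and 2239, 2529, 3479 and 2090 in MSC (3.08-fold, adjusted p = 1.28e-05). None of these 6 genes passed between PP2 and PP1, where the adjusted p ran from 0.297 for Igfbp6 to 0.947 for Cd248. Of all 28 members, 2 passed between PP2 and PP1, where 0.834% of all genes tested did.

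Tendon genes followed in part. Of 16 members, 8 were higher and 1 lower (Egr1), with a median of 0.78, against 9.28% and 14.7% of all genes, and 7 did not pass. The summed level of the list overlapped between the sorts, at 344200 to 471400 normalized counts in PP2 and 338800 to 522400 in MSC. Tnmd, the gene of tenomodulin, a membrane protein of tendon cells, was at 19645, 13037, 17346 and 15251 in PP2 and 1657, 1589, 1211 and 1562 in MSC (10.8-fold, log2 difference 3.43, SE 0.21, adjusted p = 1.37e-09). Scx, the transcription factor scleraxis of tendon progenitors, was at 1001, 1231, 860.3 and 706 against 315, 376, 266 and 388 (2.79-fold, adjusted p = 1.46e-04). Thbs4, a thrombospondin of tendon matrix, was 8.81-fold higher (adjusted p = 2.27e-07). At the joint surface the direction was mixed, with 4 of 16 articular and synovial genes higher and 7 lower. Prg4, which encodes the lubricant of the articular surface, lubricin, was at 4180, 10262, 15838 and 12625 in PP2 and 33976, 41506, 74721 and 47946 in MSC, 4.93-fold lower (log2 difference -2.30, SE 0.32, adjusted p = 2.82e-05).

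Matrix genes of fibrous tissue were among the highest counts on the PP2 side. The 10 called genes with the highest mean in PP2, not corrected for length, at least 2-fold higher and without overlap, were Col1a2, Col3a1, Vim, Mest, Fstl1, Igfbp4, Pcolce, Postn, Emp1 and Thbs2. Col3a1, the chain of type III collagen of compliant tissue, was at 343999, 245326, 352331 and 276848 in PP2 and 60413, 44588, 82351 and 51257 in MSC (5.19-fold, log2 difference 2.37, SE 0.22, adjusted p = 2.52e-07). Postn, the gene of periostin, a matrix protein named for the periosteum, was at 52840, 28923, 41261 and 30926 against 5221, 3737, 5987 and 4889 (7.64-fold, adjusted p = 3.82e-08). Both were high in every PP2 library. Col1a2, a chain of type I collagen, was 2.13-fold higher (1656220 ± 338628 against 784396 ± 194252, adjusted p = 0.0159), while its partner Col1a1 did not pass (1535660 ± 278420 against 924067 ± 313727, adjusted p = 0.0932) but was called as higher under 6 of 22 alternatives, edgeR and DESeq2 among them (adjusted p = 0.0431 and 0.0449). The Col1a2 call was lost without MSC replicate 1 (adjusted p = 0.0602) and in the fit of only the 8 libraries (adjusted p = 0.0727). Of the 23 collagens of the fibrillar, type VI and related families, 11 were higher and 3 lower (median 0.60).

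Elastic fibre genes were also on the PP2 side. Of 23 members, 12 were higher and 2 lower, with a median of 0.88. Fbn1, the gene of fibrillin 1, the backbone of microfibrils, was at 18769, 11764, 17662 and 13696 in PP2 and 4356, 5290, 6980 and 3986 in MSC (3.02-fold, log2 difference 1.59, SE 0.18, adjusted p = 3.28e-06). Mfap4 and Mfap5 encode microfibril-associated proteins. Mfap4 was at 32494, 23378, 23902 and 20333 against 1611, 1613, 2084 and 1736 (14.1-fold), and Mfap5 at 18006, 11399, 9144 and 9948 against 246, 151, 124 and 97.8 (79.6-fold). Fbln5, which encodes the elastin-binding fibulin 5, was 4.24-fold higher (adjusted p = 3.61e-08). Elastin itself (Eln) and the cross-linking enzyme gene Lox did not pass, and Loxl4, a related cross-linking enzyme gene, was 4.64-fold lower (928 ± 525 against 3919 ± 331, adjusted p = 1.13e-06). Among 16 small leucine-rich proteoglycans, which bind collagen fibrils, 5 were higher and 3 lower (8 higher in the fit of only these 8 libraries and 9 with voom). Aspn, the gene of asporin, was at 31709, 22130, 24532 and 19291 in PP2 and 1237, 829.9, 894 and 856 in MSC (25.5-fold, adjusted p = 4.17e-10), and Epyc, the gene of the cartilage member epiphycan, was 5.97-fold lower (adjusted p = 5.01e-07). Of 26 basement membrane genes, 8 were higher and 7 lower (4 lower without MSC replicate 3). Nid1, the gene of nidogen 1, was 3.37-fold higher (23049 ± 4522 against 6802 ± 1027) and Lama2, a laminin chain of muscle and nerve, 3.89-fold higher, while Hspg2, the gene of perlecan, which is also abundant in cartilage, was 2.03-fold lower (45419 ± 8030 against 94082 ± 27227).

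Cartilage genes were lower in PP2 almost without exception. Of the 27 chondrocyte genes, 24 were lower and 0 higher (median -1.40), where 14.7% of all genes were called lower. None of the 24 overlapped between libraries, where 18.1% of all genes were lower without overlap. Matn4, Ucma and Wif1 did not pass. Wif1, a secreted Wnt inhibitor gene, was at 39340, 58471, 57111 and 65189 in PP2 and 33828, 39667, 42195 and 42903 in MSC (adjusted p = 0.0675) and was called as higher in PP2 without PP2 replicate 1 (adjusted p = 0.0157). Col2a1 was at 1657810, 1370300, 1832410 and 1566600 in PP2 and 6454220, 5058300, 7757780 and 5228460 in MSC, 3.77-fold lower (log2 difference -1.92, SE 0.34, adjusted p = 4.52e-04); in the fit of only the 8 libraries it did not pass (adjusted p = 0.0549). Acan, the gene of aggrecan, the proteoglycan that holds water in cartilage, was at 50786, 43631, 59428 and 55243 against 146309, 158617, 177299 and 142773 (2.9977-fold lower, adjusted p = 4.40e-07). Sox9, the transcription factor that specifies chondrocytes, was at 3414, 2327, 2466 and 2680 against 13775, 9250, 13219 and 9562 (4.18-fold lower, adjusted p = 1.26e-06). Matn1, which encodes the cartilage matrix protein matrilin 1, was at 12344, 5166, 11036 and 4321 against 109539, 58398, 66827 and 56635 (9.44-fold lower, adjusted p = 4.48e-06). Lower levels were thus seen from the transcription factor to the matrix proteins. The 10 called genes with the highest mean in MSC, at least 2-fold lower in PP2 and without overlap, were Col2a1, Col11a2, Col9a1, Col9a2, Fn1, Col11a1, Col9a3, Acan, Spp1 and Hspg2. Cartilage was still well represented in PP2, whose summed level of the list was 2212000 to 2812000 normalized counts against 7079000 to 10350000 in MSC.

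Genes of enlarging chondrocytes and of bone-forming cells were lower as well. All 14 hypertrophic chondrocyte genes were lower, without overlap (median -2.10), where 18.1% of all genes tested were lower without overlap. Ihh, the gene of Indian hedgehog, which paces chondrocyte maturation in the growth plate, was at 502, 216, 1159 and 333 in PP2 and 4972, 6176, 4702 and 5303 in MSC (11.6-fold lower, log2 difference -3.54, SE 0.34, adjusted p = 4.87e-07). Col10a1, the type X collagen of hypertrophic cartilage, was at 6088, 286, 15867 and 109 in PP2 and 33724, 51261, 32495 and 42622 in MSC (log2 difference -4.89, adjusted p = 0.00281). PP2 replicates 1 and 3, the libraries with the most genes at 0, were far higher for Col10a1 than replicates 2 and 4. Pth1r, the receptor of parathyroid hormone and PTHrP, was 2.70-fold lower (7713 ± 1003 against 20955 ± 3972, adjusted p = 4.79e-07).

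Of 22 osteoblast genes, 16 were lower and 1, Col1a2, was higher (median -2.10); 7 of these 22 are also among the 14 hypertrophic genes. The summed level of the list, which holds Col1a1 and Col1a2, went the other way, from 3662000 to 5400000 normalized counts in PP2 and from 2546000 to 3760000 in MSC, with overlap. Alpl, which encodes the tissue-nonspecific alkaline phosphatase that frees phosphate for mineral, was at 2359, 2590, 2249 and 2234 in PP2 and 11833, 16781, 12414 and 13222 in MSC (5.71-fold lower, log2 difference -2.51, SE 0.13, adjusted p = 1.79e-10). Sp7, the osteoblast transcription factor osterix, was at 810.02, 586, 499.7 and 476 against 2665, 3207, 2626 and 2366 (4.65-fold lower, adjusted p = 1.92e-06). Bglap, the gene of osteocalcin, was at 168, 159.9, 361 and 64.4 against 821, 1584, 942 and 941 (6.51-fold lower, adjusted p = 8.53e-05); its near-identical neighbour Bglap2 could share reads with it, so these values are uncertain. All MSC libraries were above all PP2 libraries for each of these 3 genes. Of the 9 osteocyte genes, 5 were lower, among them Dmp1, which encodes a matrix protein that regulates phosphate, at 50.6, 307, 129.9 and 489 against 2911, 2439, 3485 and 2042 (adjusted p = 1.03e-05), and 3 were higher. Of 15 mineralization genes, 7 were lower and 2, the annexins Anxa2 and Anxa6, were higher. Smpd3, which encodes a sphingomyelinase needed for mineralization, was 5.37-fold lower (4872 ± 1129 against 25737 ± 2459, adjusted p = 7.58e-09).

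**Figure D3:**
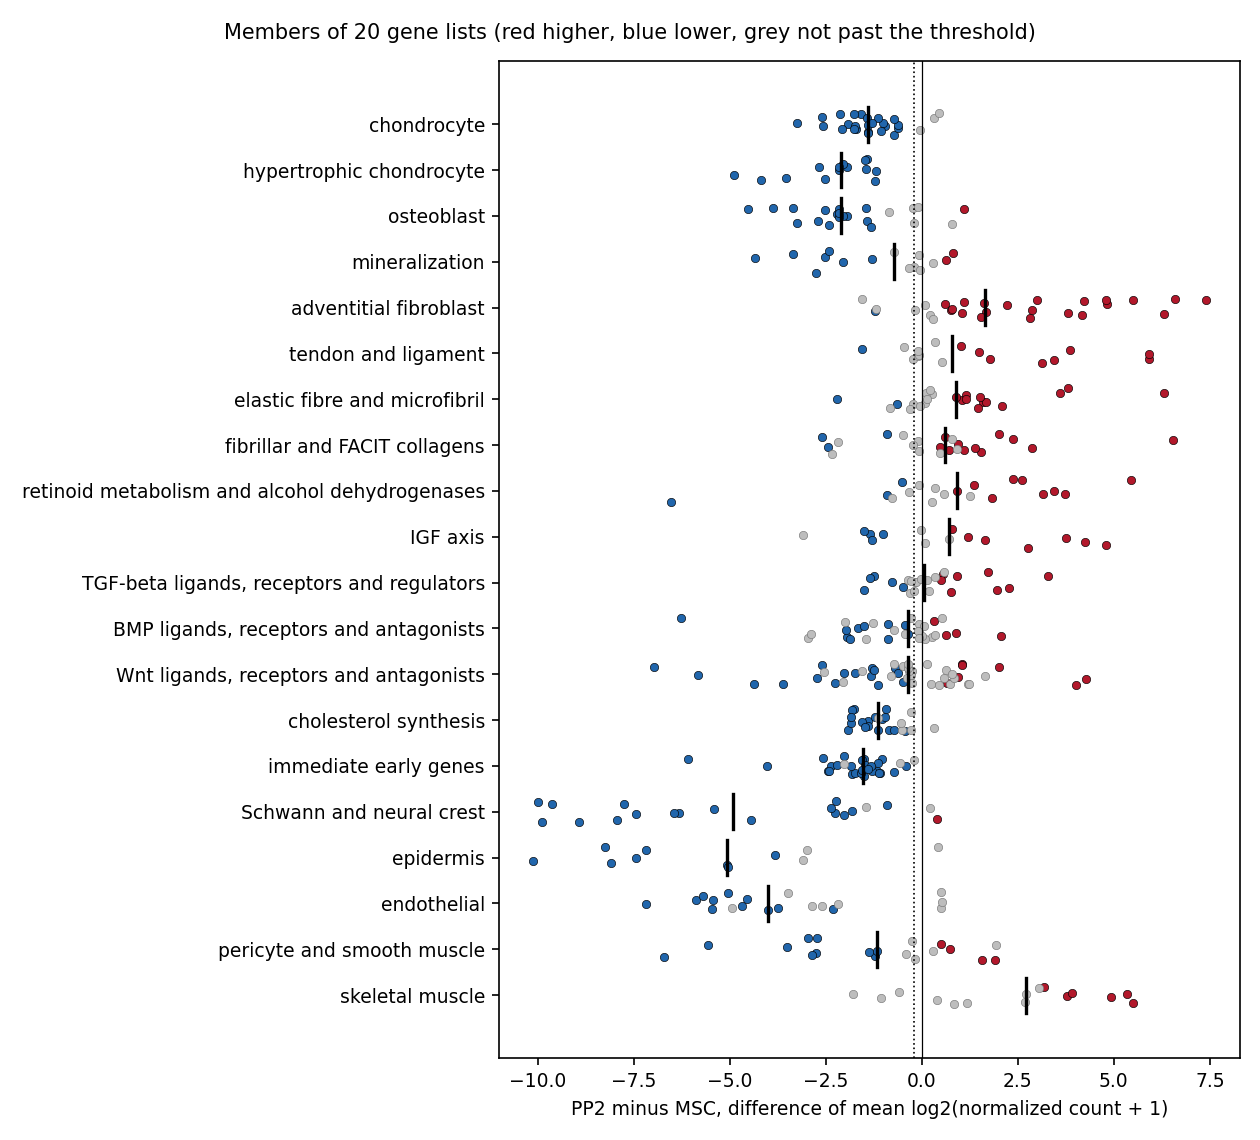
Difference of mean log2(normalized count + 1), PP2 minus MSC, of each tested member of 20 gene lists (points), with the median of each list as a bar, 0 as a solid line and the median of all genes tested as a dotted line. Cartilage, bone, cholesterol and immediate early lists lie to the left, at medians of -1.40, -2.10, -1.13 and -1.53, and the adventitial list lies to the right at 1.65.

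Growth factor pathways were split between the sorts, with counts to be read against 9.28% of all genes called higher and 14.7% lower. In the IGF axis 7 of 15 genes were higher and 4 lower (median 0.71), and all 7 higher genes encode ligands or binding proteins. Igf1, the gene of insulin-like growth factor 1, was at 9698, 6236, 6258 and 5323 in PP2 and 394, 509, 419 and 176 in MSC (19.1-fold, log2 difference 4.26, SE 0.32, adjusted p = 2.24e-08). Igf2, the fetal growth factor gene, was at 604557, 531175, 657143 and 556514 against 313114, 309880, 429584 and 309433 (1.74-fold, adjusted p = 0.00446). The binding protein gene Igfbp3 was 13.6-fold higher (14480 ± 3579 against 1051 ± 130.3, adjusted p = 4.19e-09) and Igfbp4 3.15-fold higher (adjusted p = 5.61e-08). The 4 lower genes were Igf1r, Insr, Irs1 and Irs2, which encode the IGF1 receptor, the insulin receptor and their docking proteins; Igf1r was at 215, 449, 502 and 444 in PP2 and 992, 986, 1149 and 805 in MSC (2.54-fold lower, adjusted p = 0.00656).

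In the TGF-beta family 8 of 24 genes were higher and 5 lower, with receptors and modulators in both directions; without MSC replicate 1, 3 were lower. Acvrl1, the type I receptor ALK1 that works with endoglin, was at 2267, 1778, 1287 and 1793 in PP2 and 369, 313, 419 and 354 in MSC (4.82-fold, adjusted p = 8.41e-07). Fst, the gene of follistatin, which traps activin, was 3.85-fold higher (973 ± 259 against 246 ± 32.2, adjusted p = 5.77e-04). Tgfb1 was at 1771, 1662, 1786 and 1717 against 3391, 4721, 4131 and 4262 (2.36-fold lower, adjusted p = 2.34e-05), and Smad7, the inhibitory Smad that TGF-beta induces, was 2.84-fold lower (adjusted p = 8.48e-05). The BMP list of 33 had 4 higher, a share near the 9.28% of all genes, and 10 lower. Bmp4 was at 2375, 1432, 1440 and 1969 in PP2 and 374, 429, 376 and 516 in MSC (4.19-fold higher, adjusted p = 3.00e-05), whereas Bmp2 was at 601, 805, 746 and 862 against 3732, 2275, 2730 and 3010 (3.86-fold lower, adjusted p = 1.74e-06). Bmp7 was 3.90-fold lower (485 ± 155 against 1820 ± 99.992, adjusted p = 7.45e-06). These 3 ligand genes thus differed in opposite directions, each without overlap.

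Of 47 Wnt genes, 7 were higher and 16 lower, against 9.28% and 14.7% of all genes. Among the lower ones were ligands, with Wnt4 at 109.9, 367, 179 and 122 in PP2 and 1019, 1273, 917 and 1031 in MSC (6.08-fold, adjusted p = 5.46e-06), and the nuclear factor Tcf7, 6.62-fold lower (192 ± 155 against 826 ± 164, adjusted p = 0.00242), with a log2 difference of -2.73 that was -1.82 without PP2 replicate 1 and -2.11 with DESeq2. Among the higher ones were secreted modulators. Dkk2 was at 723, 335, 603 and 448 against 28.3, 32.8, 48.8 and 18.4 (adjusted p = 0.00297), Dkk3 at 7315, 6318, 7729 and 6404 against 1407, 1499, 2263 and 1836 (adjusted p = 3.40e-06), and the Wnt enhancer gene Rspo2 at 292, 190.4, 309 and 90.3 against 7.72, 16.4, 11.1 and 5.15 (adjusted p = 0.00101). In the hedgehog list 5 of 18 were higher and 7 lower, and the number of higher genes was 3 without PP2 replicate 2, 3 or 4 or MSC replicate 2 or 4, and 2 without MSC replicate 1. Ptch1, the receptor that is also a transcriptional target, was 3.18-fold lower (1744 ± 557 against 5304 ± 645, adjusted p = 1.59e-05), and the ligand-release gene Scube1 6.77-fold lower. Of 20 Notch genes 7 were lower and 1 higher. Notch1 was at 107, 20.1, 262 and 130.4 in PP2 and 849, 729.98, 911 and 714 in MSC (adjusted p = 8.24e-04), and its target Nrarp at 0, 0, 0 and 74.4 against 240.3, 356, 208 and 246 (adjusted p = 6.64e-04). In the FGF list 1 of 24 was higher and 3 lower, a share under the 24.0% called over all genes. Spry1, a feedback inhibitor of receptor tyrosine kinases, was at 2073, 2323, 1903 and 2287 against 270.3, 298, 283 and 216 (8.05-fold higher, adjusted p = 1.07e-08). The PDGF and VEGF families had 6 of 23 genes in each direction (2 higher and 3 lower without PP2 replicates 1 and 3).

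Retinoid genes lay more often on the PP2 side. Vitamin A alcohol is oxidized by alcohol and retinol dehydrogenases to retinaldehyde and by the Aldh1a enzymes to retinoic acid. Of 19 members, 9 were higher and 3 lower (median 0.92), and the higher ones included all 3 Aldh1a genes. Aldh1a2 was at 761, 698, 685 and 432 in PP2 and 16.3, 17.1, 17.978 and 6.62 in MSC (43.2-fold, log2 difference 5.43, SE 0.92, adjusted p = 2.75e-04). Adh1, an alcohol dehydrogenase, was at 1683, 1005, 929 and 1028 against 82.4, 90.3, 65.1 and 102 (13.3-fold, adjusted p = 1.64e-07), and Crabp1, a retinoic acid-binding protein gene, at 699, 369.6, 591 and 598 against 72.1, 53.4, 31.7 and 49.3 (10.9-fold, adjusted p = 1.05e-06). Stra6, the cellular receptor for retinol-binding protein, had no read in PP2 and was at 51.5, 139.6, 89.9 and 109.5 in MSC, at least 23.5-fold lower.

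Cholesterol genes were lower together. Of 23 genes of cholesterol synthesis, uptake and control, 17 were lower and 0 higher, all 17 without overlap, with a median of -1.13. Of all genes tested, 14.7% were called lower and 18.1% were lower without overlap. Hmgcs1, the synthase at the start of the mevalonate pathway, was at 1265, 1060, 349.9 and 654 in PP2 and 3591, 2434, 2043 and 2288 in MSC (3.39-fold lower, log2 difference -1.76, SE 0.28, adjusted p = 1.53e-04). Idi1, isopentenyl diphosphate isomerase, was at 1396, 843, 1023 and 888 against 2854, 2271, 1515 and 1980 (2.06-fold lower, adjusted p = 6.35e-04), and Insig1, an anchor that holds back the sterol-sensing factor, at 4404, 3594, 3053 and 3823 against 10332, 8776, 6311 and 7713 (2.21-fold lower, adjusted p = 3.92e-05). Sqle, squalene epoxidase, was 2.96-fold lower (adjusted p = 2.02e-06). Every MSC library exceeded every PP2 library in these 4 genes. In PSC the means were higher still, at 5808 for Hmgcs1 and 16975 for Insig1.

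The transcription of this pathway is known to be driven by SREBP2, which binds sterol regulatory elements beside NF-Y at CCAAT boxes. The 250 bases before the annotated start of 3 lower genes are shown for that reason, from RefSeq promoter sequences of GRCm38.p6, 5′ to 3′ on the gene's strand. Capitals mark the sterol element TCACNCCAC and the CCAAT box, each searched on both strands (CCAAT reads ATTGG on the other strand). The windows are chr13:119690101-119690350 on the plus strand for Hmgcs1, chr13:8885356-8885605 on the plus strand for Idi1 and chr5:28071162-28071411 on the plus strand for Insig1.
Hmgcs1: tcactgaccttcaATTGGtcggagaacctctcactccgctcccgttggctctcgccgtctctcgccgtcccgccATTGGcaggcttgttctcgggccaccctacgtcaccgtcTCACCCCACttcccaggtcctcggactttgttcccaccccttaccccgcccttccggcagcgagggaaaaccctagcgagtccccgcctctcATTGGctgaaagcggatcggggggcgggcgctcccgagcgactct
Idi1: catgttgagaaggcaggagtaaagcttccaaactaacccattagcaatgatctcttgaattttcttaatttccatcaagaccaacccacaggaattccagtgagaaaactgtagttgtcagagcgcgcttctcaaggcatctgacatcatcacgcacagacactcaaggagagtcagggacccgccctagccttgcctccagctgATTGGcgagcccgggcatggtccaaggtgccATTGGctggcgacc
Insig1: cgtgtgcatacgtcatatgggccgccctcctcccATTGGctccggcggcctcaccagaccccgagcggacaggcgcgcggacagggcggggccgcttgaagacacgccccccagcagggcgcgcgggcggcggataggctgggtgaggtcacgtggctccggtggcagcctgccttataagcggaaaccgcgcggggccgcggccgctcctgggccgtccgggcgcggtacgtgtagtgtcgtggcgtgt
The Hmgcs1 window holds the sterol element 137 to 129 bases before the start and 3 CCAAT boxes, Idi1 holds 2 CCAAT boxes and Insig1 holds 1. In windows of 300 bases (250 before and 50 after the start), available for 17 of the 23 members, a CCAAT box was found in 16 members (94.1%) against 11096 of all 27025 genes with a window (41.1%). It was found in 10 of the 11 called members and in 6 of the 6 that did not pass. The sterol element was found in 1 member (5.88%) against 388 of all genes (1.44%). A match is a string of letters and does not show binding.

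Immediate early genes, which cells switch on within minutes of a stimulus and also during tissue dissociation, were lower in PP2. Of 30 members, 27 were lower and 0 higher, 25 without overlap, with a median of -1.53. Over all genes tested, 14.7% were called lower and 18.1% were lower without overlap. Fos, an AP-1 subunit gene, was at 22153, 15900, 23841 and 18903 in PP2 and 54655, 48259, 71140 and 54570 in MSC (2.83-fold lower, log2 difference -1.50, SE 0.16, adjusted p = 1.74e-06). Egr1, a zinc finger factor gene, was 2.95-fold lower (18564 ± 2204 against 55669 ± 13972, adjusted p = 8.29e-08), and Nr4a1, an orphan nuclear receptor gene, was at 2065, 1310, 1967 and 1507 against 13606, 5528, 9210 and 8359 (5.18-fold lower, adjusted p = 1.72e-06). Zfp36, whose protein destabilizes mRNAs with AU-rich elements, was at 5542, 2748, 2781 and 2827 against 21502, 13388, 19233 and 17610 (5.34-fold lower, adjusted p = 2.58e-07). Dusp1, a phosphatase of MAP kinases, was at 4435, 4869, 4300 and 6021 against 6419, 8680, 7467 and 9802 (1.64-fold lower, adjusted p = 4.12e-04). The mean of Fos was 20714 in PP1 and 48412 in PSC. All 4 sorts went through digestion and sorting, whose durations per sort are not in the labels, and the part of handling in these levels was not tested.

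Serum response factor acts on such genes through CArG boxes and CREB through the cAMP response element TGACGTCA, and 1 window with each is shown, in capitals, again as the 250 bases before the start from GRCm38.p6. They are chr7:28379229-28379478 on the minus strand for Zfp36, with a CArG box 58 to 49 bases before the start, and chr17:26508473-26508722 on the minus strand for Dusp1, with the cAMP response element 143 to 136 bases before it.
Zfp36: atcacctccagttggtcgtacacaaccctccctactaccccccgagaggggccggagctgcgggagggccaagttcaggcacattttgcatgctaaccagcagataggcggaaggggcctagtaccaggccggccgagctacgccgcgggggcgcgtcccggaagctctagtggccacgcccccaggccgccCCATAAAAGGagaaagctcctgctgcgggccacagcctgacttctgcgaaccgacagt
Dusp1: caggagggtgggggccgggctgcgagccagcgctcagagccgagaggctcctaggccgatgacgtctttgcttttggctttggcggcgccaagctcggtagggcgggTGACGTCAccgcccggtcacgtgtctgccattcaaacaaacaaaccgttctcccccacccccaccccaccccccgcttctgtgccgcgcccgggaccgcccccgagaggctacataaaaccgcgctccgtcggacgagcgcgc
In the 300-base windows of 24 of the 30 members, a CArG box was found in 2 (8.33%) against 488 of 27025 genes (1.81%), and the cAMP response element in 3 (12.5%) against 549 genes (2.03%). Of the members called, 2 of 22 held the CArG box and 2 of 22 the cAMP response element, which was also in 1 of the 2 members that did not pass.

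Other lists went both ways, with counts to be read against 9.28% of all genes called higher and 14.7% lower. Of 36 enzymes and transporters of sulfated glycosaminoglycan synthesis, which supplies the chains of aggrecan, 12 were lower and 3 higher; Xylt1, the xylosyltransferase that starts the chains, was 4.38-fold lower (737 ± 96.9 against 3223 ± 351, adjusted p = 6.96e-09). The 33 genes of collagen processing and ER folding had 6 higher and 13 lower (8 lower after scaling to the column total), and the 44 matrix proteases and inhibitors had 10 in each direction. Mmp9, a gelatinase gene of osteoclasts and cartilage resorption, was at 204, 1693, 530.2 and 402 in PP2 and 7440, 6916, 6820 and 5875 in MSC (adjusted p = 2.17e-04). Of 20 integrins 2 were higher, a share near that of all genes, and 7 lower (4 without MSC replicate 3). Of 34 mesenchymal transcription factors 8 were higher and 5 lower (3 lower without PP2 replicate 1 or any 1 MSC library). The lower share of these factors was near that of all genes. Prrx1, a limb mesenchyme homeobox gene, was at 4757, 3645, 5248 and 4456 against 1175, 1359, 1522 and 1351 (3.33-fold higher, adjusted p = 7.56e-06), and Twist2 5.86-fold higher (adjusted p = 0.00254). Of 29 Hox and limb position genes, 1 was higher and 3 were lower, a share under the 24.0% called over all genes.

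Marrow stroma genes had 6 of 23 in each direction. This and the next counts are to be read against 9.28% of all genes called higher and 14.7% lower. Vcam1, an adhesion receptor gene of stroma, was 3.08-fold higher in PP2 (1355 ± 149 against 458 ± 155, adjusted p = 1.09e-04), and Apoe, the lipid carrier gene, 3.39-fold lower (adjusted p = 8.25e-06). Of 18 chemokine and receptor genes 5 were higher, among them the alarmin gene Il33, at 397, 337, 290.3 and 231 in PP2 and 7.72, 9.58, 6.85 and 12.5 in MSC (adjusted p = 3.48e-04), and 2 lower (3 higher without MSC replicate 3). The complement list had 5 of 16 higher and 3 lower. Serping1, which encodes the C1 inhibitor, was at 5713, 4123, 6571 and 3591 against 471, 423, 387 and 344 (12.005-fold higher, adjusted p = 4.24e-10). Among 26 bone regulators and hormone receptors 4 were higher and 8 lower. Prkg2, a kinase gene of growth plate signalling by natriuretic peptide, was 10.7-fold lower (234 ± 126 against 2218 ± 138, adjusted p = 1.07e-06), and Vdr, the vitamin D receptor gene, 3.93-fold lower (adjusted p = 4.46e-05). Tnfsf11, which encodes RANKL, was at 79.1, 313, 42.4 and 206 against 642, 870.2, 449 and 484 (adjusted p = 0.0192) and was not called without PP2 replicate 1, PP2 replicate 3 or MSC replicate 2.

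Surface, adhesion and guidance genes also differed in both directions. Of 23 surface and marker genes used for skeletal stem and periosteal cells, 12 were higher and 5 lower (3 lower without PP2 replicate 2 or MSC replicate 1 or 3). Over all genes the shares were 9.28% and 14.7%. Markers of this kind can be the ones sorted on, as for Eng and Cd200, so the count is no independent finding. Alcam, an adhesion molecule gene, was at 157, 11.9, 51.7 and 69.4 in PP2 and 396, 297, 415 and 286 in MSC (adjusted p = 0.0197), and was not called without PP2 replicate 2 or MSC replicate 1 or 3. Of 35 semaphorin, neuropilin and neurotrophin genes, 6 were higher and 11 lower. Sema3c, a secreted semaphorin gene, was at 2974, 2856, 2911 and 4055 against 1092, 982, 1225 and 1069 (2.91-fold higher, adjusted p = 3.77e-06), and all PP2 libraries were above all MSC libraries. Of 16 thrombospondins, tenascins and related matrix proteins, 5 were higher (8 without MSC replicate 3) and 6 lower. Ctgf, a matricellular growth factor gene induced by TGF-beta and YAP, was at 17561, 22990, 26887 and 22541 against 36355, 37338, 42177 and 38669 (1.73-fold lower, adjusted p = 1.06e-04). Of 21 MHC class I and interferon genes, 3 were higher and 2 lower, a share near the 24.0% called over all genes. B2m, the light chain of MHC class I, was 1.69-fold higher (adjusted p = 1.54e-04).

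Growth and energy lists had calls in both directions, at shares to be read against the 24.0% of all genes. Of 35 cell cycle genes 4 were higher and 4 lower, and the mitotic genes Mki67 and Top2a did not pass. Cdkn1a, the gene of the cell cycle inhibitor p21, was at 1942, 2171, 2055 and 2915 in PP2 and 6401, 7628, 5018 and 7430 in MSC (2.91-fold lower, adjusted p = 1.82e-06). In the glycolysis and hypoxia list 1 of 29 was higher and 10 lower (6 lower without PP2 replicate 2 or MSC replicate 3, and 5 after scaling to the column total). Of 28 respiratory chain genes 8 were higher and 1 lower (5 higher without PP2 replicate 1 or MSC replicate 1 or 3, and 14 with the replicate block), and of 34 ribosomal protein genes 6 were higher and 0 lower. The ribosomal count was 0 without PP2 replicate 1, PP2 replicate 2 or MSC replicate 3, 1 without PP2 replicate 4, 2 without MSC replicate 1, and 13 with the replicate block.

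A small set of genes separated PP2 from every other sort. In a test that takes the largest of the 3 p-values against MSC, PP1 and PSC in the same direction, 5 genes were higher in PP2 (0.0362% of those tested) and 16 lower (0.116%); the number depended on the method, with 108 in all from DESeq2, 7 from voom and 33 without PP2 replicate 3. The higher genes were Eng, Adh1, Lsp1, Pdgfrl and Lrrtm3, the last of which was not called against MSC with edgeR or DESeq2. Eng is the surface marker of the sort, so its place is no finding. Adh1 averaged 1161 ± 350.1 in PP2 against 84.985 ± 15.6 in MSC, 271 ± 109 in PP1 and 157 ± 34.2 in PSC. Lsp1, which encodes an actin-binding protein known from leukocytes, was at 2695, 2911, 2898 and 2470 in PP2 and 1282, 1324, 1287 and 1345 in MSC (2.09-fold, adjusted p = 2.43e-06), and Pdgfrl, a secreted relative of PDGF receptors, at 10563, 10999, 10718 and 9633 and 6117, 5647, 6786 and 6060 (1.70-fold, adjusted p = 3.87e-06). The lower genes included Ihh, Panx3, Epyc, Ppa1, Slc13a5, Cbln2, Ifitm5, Map3k7cl, Car3, Gpr56, Car12, F11r, Pdp2, Skap2 and Bglap. Car12, a membrane carbonic anhydrase gene, was at 67.043, 29.7, 39.8 and 79.4 in PP2, 674, 1423, 849 and 925 in MSC, 615, 595, 266 and 475 in PP1 and 4484, 5627, 3964 and 4749 in PSC. Every PP2 library lay below every library of the other 3 sorts. Ihh, at 553 ± 421 in PP2, averaged 2399 in PP1 and 23786 in PSC. Panx3, a pannexin channel gene of maturing cartilage and bone, averaged 1390 ± 806 in PP2 against 8113 ± 1351 in MSC, 3257 ± 936 in PP1 and 32214 ± 3601 in PSC, and Ifitm5, a bone-specific transmembrane protein gene, 119.8 ± 52.3 against 1103 ± 332, 505 ± 211 and 875 ± 76.6. Cbln2, Gpr56, Map3k7cl, Pdp2 and F11r were at 0 in 2 or 3 of the 4 PP2 libraries.

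**Figure D4:**
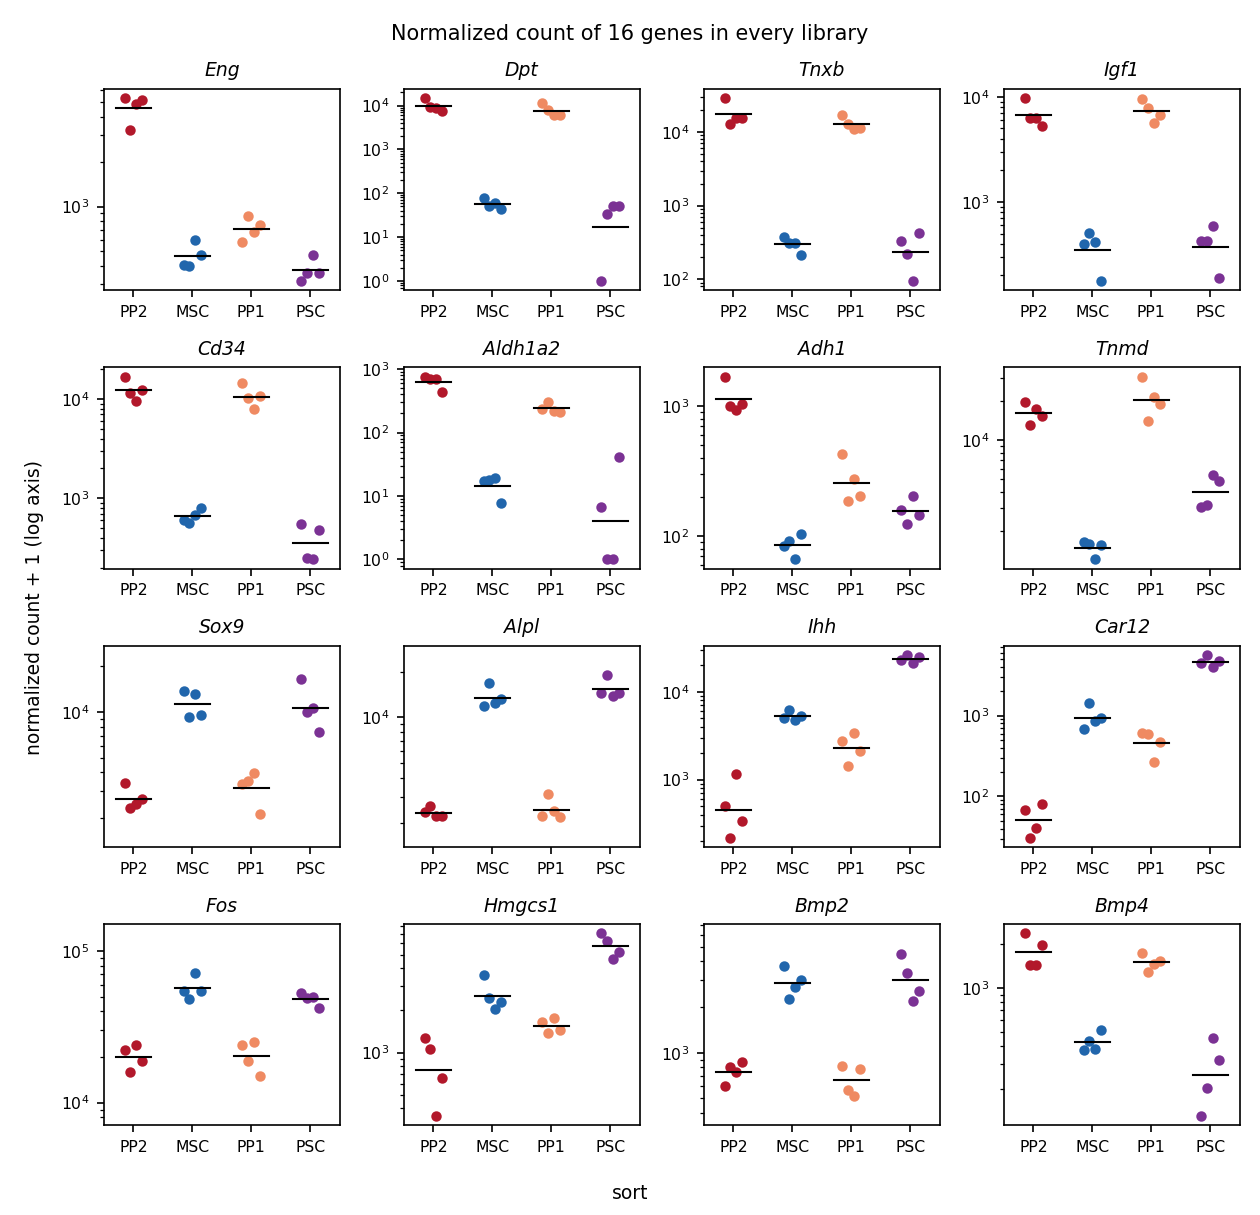
Normalized count + 1 (log axis) of 16 genes in each of the 16 libraries, by sort, with the line at the mean of the log values; the axis range differs between panels. Dpt, Tnxb, Igf1, Cd34, Aldh1a2, Tnmd and Bmp4 were higher in PP2 than in MSC, Sox9, Alpl, Ihh, Car12, Fos, Hmgcs1 and Bmp2 lower, and Eng and Adh1 were higher in PP2 than in each other sort.

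In the GENCODE M21 annotation of GRCm38, the build of the deposited values (mm10), Eng (ENSMUSG00000026814) spans chr2:32646595-32682669 on the plus strand, Dpt (ENSMUSG00000026574) chr1:164796644-164824266 on the plus strand, Tnxb (ENSMUSG00000033327) chr17:34670535-34719815 on the plus strand, Igf1 (ENSMUSG00000020053) chr10:87858265-87937042 on the plus strand, Adh1 (ENSMUSG00000074207) chr3:138260991-138290698 on the plus strand, Car12 (ENSMUSG00000032373) chr9:66713686-66766845 on the plus strand, Ihh (ENSMUSG00000006538) chr1:74945315-74951672 on the minus strand and Alpl (ENSMUSG00000028766) chr4:137741733-137796384 on the minus strand. All are protein-coding genes, and the values count reads over each gene as the authors assigned them.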

How the data were processed

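Single cells from digested skeletal tissue of mouse femurs were sorted by FACS, and RNA was prepared with the RNeasy Plus Micro kit and sequenced from TruSeq RNA libraries on a HiSeq4000, per the labels. Listed in the submitters' processing notes, without their roles, are DESeq2 1.6.3, HTSeq 0.6.1, TopHat2 2.0.11 and bcl2fastq 2.17, with cutadapt and mm10 as the build. Annotation, filters and strandedness: not given in the sources used here. A single table was deposited by the authors, whose signal is a read count divided by a size factor per library, called a normalized count here. In every library 100% of the values were whole multiples of 1 step (tolerance 1e-06), so reads were recovered, 24.3 M to 48.36 M (M, mega) in the libraries compared. Reads are not molecules, so floors cover counting error only.

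The test was limma 3.58.1 (R 4.3.3) with a mean trend on log2(normalized count + 1), fitted to all 16 libraries with the sort as the only term, for the contrast PP2 minus MSC. P-values were adjusted by Benjamini and Hochberg over the 13797 genes, and an adjusted p under 0.05 is a call. Because 1 is added, fold changes of genes low in every library of a sort are understated. Where only some libraries of a sort are at 0, the mean of log values can overstate a fold or turn its direction. Enpep, at 0 in PP2 replicate 1, had a log2 difference of -0.63 with means of 172 in PP2 and 86.6 in MSC. A gene without a read in 1 sort is given a bound against 3 reads per library. Library measures were compared by two-sided exact permutation over 70 splits. Alternatives were pseudocounts of 0.5 and 8, other filters and scalings, edgeR 4.0.16, DESeq2 1.42.0 and voom on recovered reads, a replicate block and left-out libraries. The fit was also run on simulated data in which all sorts had the same spread. The larger spread and the extra genes at 0 of PP2 were not simulated.

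Named genes were the 6 transcripts tied to the sort, the 15 largest called rises and falls with a mean of at least 100 in the higher sort, no overlap and a unique symbol that is not a placeholder, the 10 called genes with the highest mean in each direction at 2-fold or more without overlap, the 6 genes per direction most apart in PP2 under the same conditions, and members of the gene lists beside their count. The other genes apart in PP2, and the members shown from each list, were picked after their values were seen. A few genes that these rules name are not reported here. The comparison, the lists and their members were chosen with earlier results of these data known. Gene identifiers were matched to GENCODE M21, and promoter windows came from RefSeq.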

Additional observations from a re-analysis of the deposited data

Results flagged for a closer look

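Outlying libraries were sought in 359 groups of 4 libraries, each the values of 1 named gene or 1 library measure in PP2 or in MSC. Chance takes about 1 of 20 groups of normally spread values past Dixon's 95% critical value. In 28 groups the gap of 1 library to the nearest other, relative to the group's range, exceeded that value. In 12 of them, a gene had reads in 1 PP2 library and none in the other PP2 libraries. Any gene read in only 1 library of a group passes by construction, so the rate of 1 in 20 does not hold for such groups. Ednrb (3.343 normalized counts), Sox10 (11.7), Mal (14.21), Pdp2 (29.25), Pecam1 (19.22) and Nrarp (74.38) were read only in PP2 replicate 4, and F11r was highest there (45.97). Col20a1 (20.82), Pou3f1 (29.75), Cbln2 (27.52), Gpr56 (14.13), Map3k7cl (6.693) and Prtn3 (61.72) were read only in PP2 replicate 2. PP2 replicates 2 and 4 are the PP2 libraries with the most recovered reads.

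PP2 replicate 1 stood above the other PP2 libraries for Coch (1818), Tnxb (28970), Adh1 (1683), Igfbp6 (15200) and Zfp36 (5542), and PP2 replicate 3 for Irs2 (502.4) and Loxl4 (1711), and PP2 replicate 4 for Sema3c (4055). In MSC, replicate 1 was high for Adcyap1r1 (14.59) and Aspn (1237), replicate 2 for Bglap (1584) and replicate 3 for Igf2 (429600) and Nid1 (8337). MSC replicate 4 was low for Aldh1a2 (6.616) and was the only MSC library with reads of Lrrtm3 (3.676). Apart from Prtn3 and Lrrtm3, each of these genes was called in the same direction in the fit of all 16 libraries under every alternative run.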

How the results depend on the processing

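The number of genes called ran from 2407 (without MSC replicate 3) to 3337 (without PP2 replicate 3) when 1 library was left out, with 969 to 1321 higher and 1433 to 2032 lower, and was 2537 without PP2 replicates 1 and 3. It was 3289 and 3403 with pseudocounts of 0.5 and 8, 2788 with edgeR, 3162 with DESeq2 and 3958 with voom. Among genes with a read in all 16 libraries, which are fewer, 1351 were lower. Genes apart in PP2 numbered 108 with DESeq2 and 7 with voom, and 16 to 33 when a library was left out; the cause was not tested. With 1 library left out, the difference of PP2 minus MSC ran from -13.61 M to -7.997 M reads, -3287 to -2783 genes with a read, 9.277 to 12.14 percentage points of genes at 0 and -13.71 to -11.61 points of Col2a1.

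The replicate numbers were not taken to pair the libraries: deviations of same-numbered PP2 and MSC libraries correlated at 0.018 to 0.096. The fit with the replicate number as a block called 3766 genes, 1520 higher and 2246 lower. Each PP2 library correlated best with its own number in PP1 and in PSC. In MSC this held except for PP2 replicate 4, at 0.018 with MSC replicate 4 and 0.029 with MSC replicate 1. All of the same-number correlations of PP2 with MSC, PP1 and PSC were above 0, and Y-linked transcripts were present in replicates 2 and 3 and near 0 in replicates 1 and 4 of every sort, so that shared animals by number were neither shown nor excluded.

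Of the log2 differences of 180 named genes, 3801 values under alternatives kept their direction and call, 65 lost the call (13 genes) and 22 gained it (6 genes). Sign changes were confined to 4 genes that did not pass. Enpep turned to 0.04 with a pseudocount of 8, 0.99 with edgeR (RLE and TMM) and DESeq2, 0.87 without PP2 replicates 1 and 3, and with 1 library left out it ran from -1.55 to 1.29 (without PP2 replicate 1). Cxcl12 turned to 0.01 after TMM scaling, 0.11 after column-total scaling, 0.06 and 0.08 with edgeR (RLE and TMM), 0.06 with DESeq2, 0.03 with voom, 0.19 without PP2 replicates 1 and 3, and with 1 library left out it ran from -0.28 to 0.23, above 0 without PP2 replicate 3 or 4 or MSC replicate 2. Ucma turned to 0.06 after column-total scaling, 0.04 with voom, 0.01 without PP2 replicates 1 and 3, and with 1 library left out it ran from -0.16 to 0.08, above 0 without PP2 replicate 3 or MSC replicate 1. Eln turned to -0.09 without PP2 replicates 1 and 3. Without PP2 replicates 1 and 3 the log2 difference was -4.29 for Ihh, -3.34 for Bglap, -3.89 for Matn1, -4.14 for Prkg2 and -2.16 for Scube1, each over 1.5 times from its fold in the report. For Col10a1 it was -7.79, beside -4.89 in the main fit. With a read required in all 16 libraries, 6 Schwann, 1 endothelial and 0 epidermal markers were called lower and 2 skeletal muscle markers higher, since few of them have a read in every library.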
